A study of Rattus norvegicus with 54 samples.

Results

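The genes described here are the interferon response genes, the transcripts that cells switch on when interferon binds its receptor. A list of 39 such genes was matched to the array by gene symbol, or by gene identifier where the array used an older symbol, and 38 were found with 1 probe set each among 27342 main probe sets. Isg15, Ifi27 and Xaf1 stood under older or differently written symbols, and Eif2ak2 was not analysed here. Type I interferons bind the IFNAR receptor, whose kinases activate STAT proteins. STAT2 and IRF9 belong to the ISGF3 complex, which binds interferon-stimulated response elements in promoters and turns on antiviral genes. Type II interferon has a receptor of its own and acts mainly through gamma-activated sites. In the central nervous system, glia and neurons all respond to interferons, and interferon beta is a treatment for multiple sclerosis.

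Signals came from 54 arrays, 1 per sample, in 18 groups of 3. Neural progenitor cell (NPC) cultures were grown from the subventricular zone (SVZ, a germinal zone beside the forebrain ventricles) and from the cervical, thoracic and caudal spinal cord of Dark Agouti rats. Rats carried EAE, short for experimental autoimmune encephalomyelitis, in which immune cells attack myelin and which serves as a model of multiple sclerosis, or were healthy (naive). Cultures were profiled after 5 days of differentiation, or undifferentiated after the second passage. The remaining groups were SVZ biopsies of EAE and naive rats, profiled without culture, whose labels give no strain. The labels name no transgene, drug or agent used to induce EAE, and give no ages. Whether the 3 replicates of a group are different animals or different cultures is not stated, so each p-value refers to the spread among these arrays alone, and that spread may be technical. It is also not stated whether cultures of different regions came from the same rats.

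The 54 arrays had median signals of 51.6 to 120.1 over the main probe sets and of 19.0 to 36.1 over 45 background probe sets. A probe set counted as detected above a signal of 50. Of 11 neural progenitor markers, 10 were above 50 on all 6 differentiated and all 6 undifferentiated SVZ arrays. The count was also 10 on every SVZ biopsy array, so it does not tell culture from tissue or the stages apart. The exception in differentiated SVZ was Prom1, with 40.9, 39.4 and 38.6 in EAE cultures, against 37.0, 42.6 and 22.3 in naive ones. In differentiated cervical, thoracic and caudal EAE cultures 6 to 8 of these markers were above 50. On 6 arrays no other array of the group correlated at 0.96 or more over the main probe sets, and all were naive: undifferentiated cervical 3 and thoracic 2, differentiated SVZ 3, and differentiated thoracic 1, 2 and 3.

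The interferon response genes had their highest signals in differentiated SVZ cultures. Of 38 members, 37 had their highest array in the differentiated SVZ EAE group, 26 on replicate 2 and 11 on replicate 3. For 32 of the 38, all 3 differentiated SVZ EAE arrays lay above each of the 48 arrays outside differentiated SVZ, as did 4.09% of all main probe sets. Naive differentiated SVZ arrays 1 and 2 each lay above those 48 arrays for 29 members (4.07% and 3.2% of all main probe sets), and naive array 3 for 6 (2.05%). The mean of log2(signal + 16) over the members was 9.65 ± 0.43 in differentiated SVZ EAE and 8.07 ± 0.82 in differentiated SVZ naive cultures (SD, n = 3 each), and between 6.13 and 6.84 in the other 16 groups. Single arrays outside differentiated SVZ came near naive array 3, which had a mean of 7.12 and 28 members above 50. Differentiated cervical naive array 1 was above it, at 7.43 with 34 members above 50, and undifferentiated thoracic naive array 3 had 7.11. The summed signal of 14 fibroblast and pericyte markers was 25500.3, 1952 and 3371 on the 3 differentiated cervical naive arrays, highest on array 1, and its part was not tested. In bulk cultures, more cells of a responding type and more transcript per cell cannot be told apart.

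**Figure D1:**
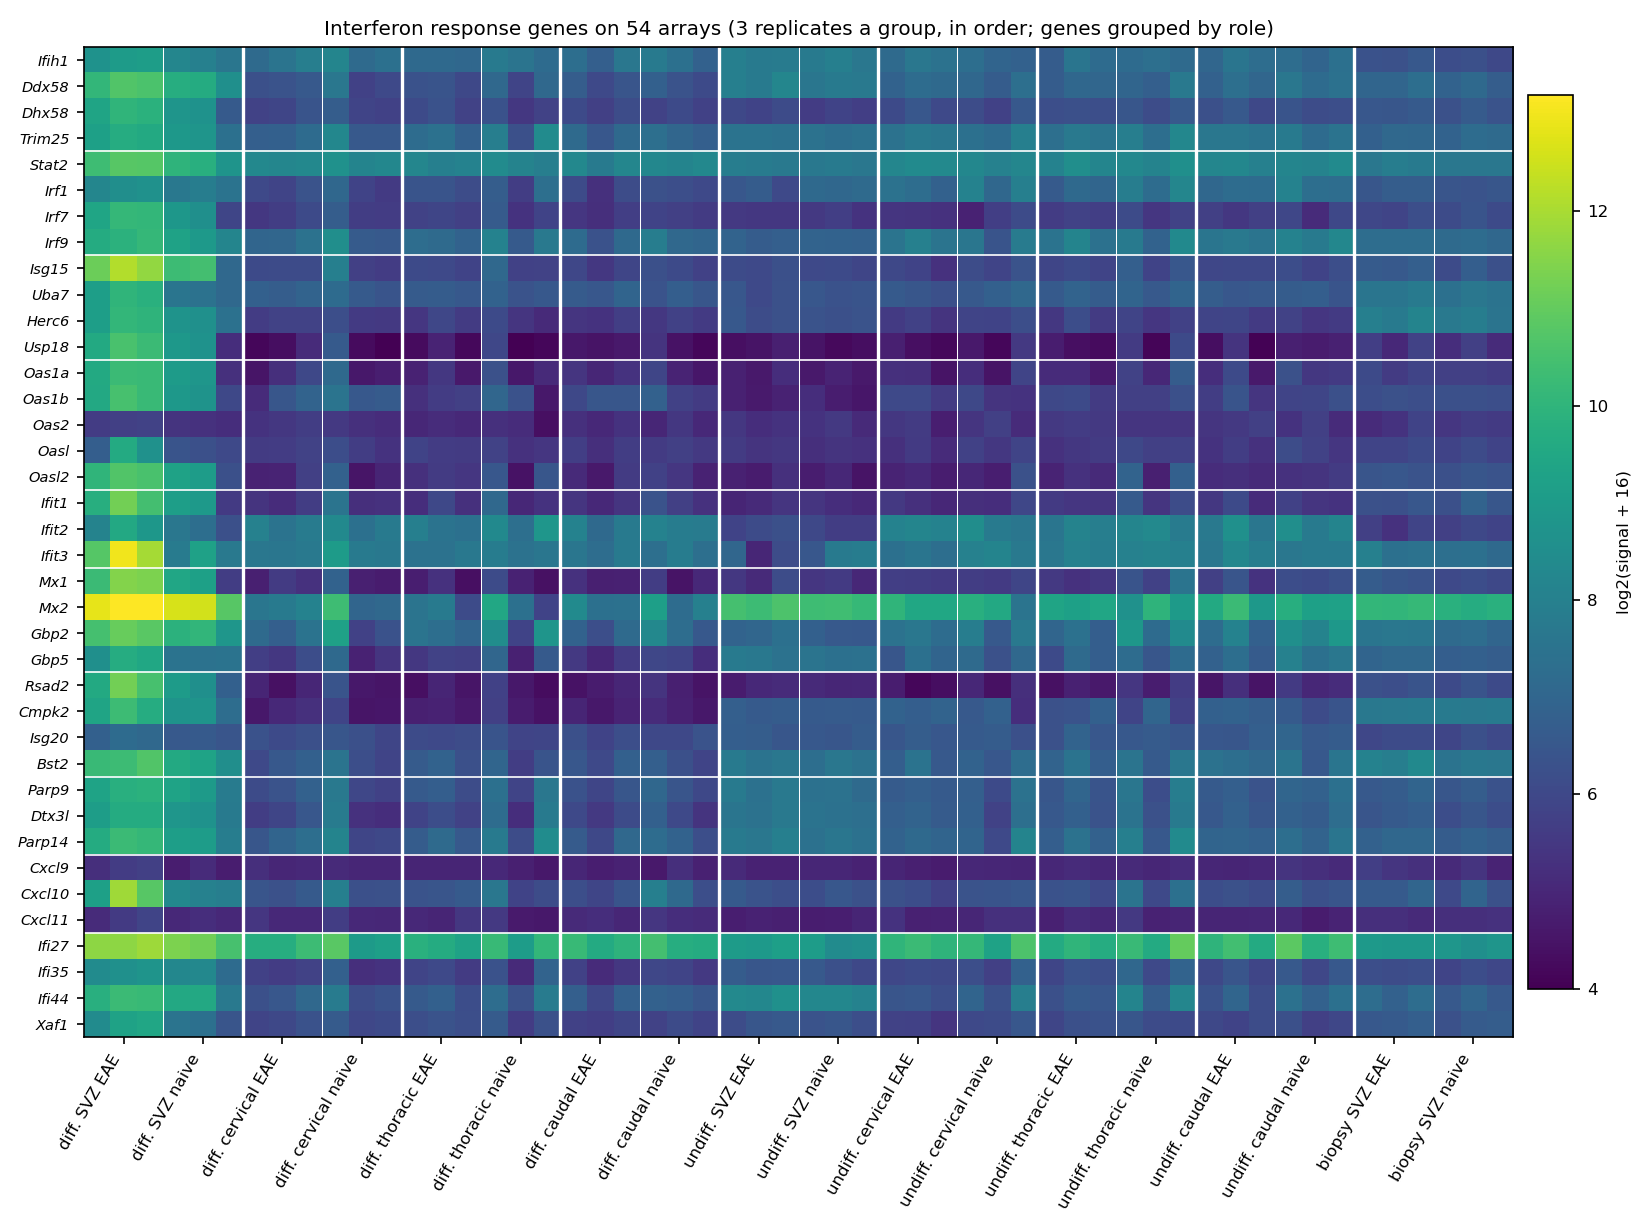
Level of 38 interferon response genes, as log2(signal + 16), on 54 arrays. Rows are genes grouped by role, and columns are arrays, 3 a group in replicate order. The bright block at the left is differentiated SVZ, where the EAE arrays lie above the naive ones and naive array 3 is darker than naive arrays 1 and 2.

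Promoters of members are shown because the element bound by ISGF3 has a known form. The list was made of interferon response genes, so how often they carry this element does not bear on the changes in these cultures. RefSeq windows (build GRCr8, 250 bases before to 50 after the start, 300 in all) were found for 30 of the 38 members. The core of the interferon-stimulated response element (ISRE), searched as GAAA, any 2 bases and GAAA again, was present on either strand in 17 of 30 member windows (56.7%), against 1312 of all 33469 windows (3.92%). The letters TTCNNNGAA, the core of the gamma-activated site, were present in 8 of 30 (26.7%), against 8.87% of all windows. A match is a description of the letters and not a shown binding site, and no match says only that these letters were not in the window. The windows below run 5′ to 3′ along the gene, with the ISRE letters, or TTTC, any 2 bases and TTTC on the other strand, in capitals. Ifit3 and Cxcl10 had the widest called differences between cord and SVZ, Gbp5 and Irf7 represent GTPases and transcription factors, Oas1a has 2 overlapping matches, and Uba7, which had the smallest adjusted p of that comparison, has none.

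Ifit3: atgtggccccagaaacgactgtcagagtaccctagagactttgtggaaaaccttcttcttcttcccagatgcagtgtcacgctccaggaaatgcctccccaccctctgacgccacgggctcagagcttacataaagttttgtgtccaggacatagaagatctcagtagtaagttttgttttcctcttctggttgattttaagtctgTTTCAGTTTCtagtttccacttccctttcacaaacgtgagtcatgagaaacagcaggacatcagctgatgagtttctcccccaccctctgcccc
Cxcl10: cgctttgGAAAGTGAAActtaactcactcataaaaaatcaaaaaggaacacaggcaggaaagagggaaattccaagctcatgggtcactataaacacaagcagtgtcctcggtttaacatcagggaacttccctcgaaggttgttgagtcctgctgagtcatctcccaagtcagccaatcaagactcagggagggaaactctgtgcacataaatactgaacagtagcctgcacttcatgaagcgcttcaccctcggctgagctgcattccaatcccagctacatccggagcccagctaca
Gbp5: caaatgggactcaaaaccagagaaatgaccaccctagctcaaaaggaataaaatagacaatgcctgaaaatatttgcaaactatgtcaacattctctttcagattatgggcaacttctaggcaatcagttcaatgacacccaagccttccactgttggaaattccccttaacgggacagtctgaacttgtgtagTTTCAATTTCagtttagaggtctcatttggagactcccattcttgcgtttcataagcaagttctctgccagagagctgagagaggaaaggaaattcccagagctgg
Irf7: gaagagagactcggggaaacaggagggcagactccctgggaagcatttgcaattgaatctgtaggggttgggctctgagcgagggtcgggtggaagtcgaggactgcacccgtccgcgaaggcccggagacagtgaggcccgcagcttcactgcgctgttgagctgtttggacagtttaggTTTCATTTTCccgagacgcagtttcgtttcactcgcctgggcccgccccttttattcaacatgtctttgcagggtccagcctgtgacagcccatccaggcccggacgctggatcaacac
Oas1a: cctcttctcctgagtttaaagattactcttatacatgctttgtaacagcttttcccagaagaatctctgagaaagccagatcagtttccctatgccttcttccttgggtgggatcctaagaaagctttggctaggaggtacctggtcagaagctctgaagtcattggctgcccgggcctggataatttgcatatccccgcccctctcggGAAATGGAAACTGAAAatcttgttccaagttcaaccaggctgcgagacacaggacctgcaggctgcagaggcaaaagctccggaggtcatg
Uba7: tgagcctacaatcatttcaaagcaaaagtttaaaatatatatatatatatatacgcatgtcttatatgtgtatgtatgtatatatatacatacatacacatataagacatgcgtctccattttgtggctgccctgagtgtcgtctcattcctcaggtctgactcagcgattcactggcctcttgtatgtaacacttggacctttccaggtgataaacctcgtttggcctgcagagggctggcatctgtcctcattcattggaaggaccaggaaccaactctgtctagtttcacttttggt

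The windows lie at chr1:241527076-241527375, plus strand for Ifit3, chr14:15988816-15989115, plus strand for Cxcl10 and chr2:233910749-233911048, plus strand for Gbp5. Those of the others lie at chr1:205799974-205800273, minus strand for Irf7, chr12:41330216-41330515, plus strand for Oas1a and chr8:117543652-117543951, plus strand for Uba7. Counted from the start base as 0, the first base of the match was at -44 in Ifit3, -243 in Cxcl10, -56 in Gbp5 and -69 in Irf7. In Oas1a the matches began at -41 and -35, and the neighbouring Oas1b had the same pair of 10-base matches at -59 and -53. Isg15, Ifit1, Ifit2, Mx2, Oas2, Usp18, Dhx58 and Ddx58 have no window in the table used.

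Differentiated SVZ cultures were first compared with undifferentiated ones from the same region, a comparison chosen after the members' values were seen. In EAE cultures all 35 members tested rose on differentiation (limma, adjusted p not above 0.05 and at least 1.2-fold), where 26.3% of all probe sets tested rose. Of the 35, 15 were not above 50 on all 3 undifferentiated EAE arrays and passed the signal filter only with differentiated ones. The filter thus favoured a rise for these 15. The other 20, above 50 on all 3 undifferentiated EAE arrays, all rose, as did 21.1% of all probe sets that met this condition. The median change of the members was 2.85 on the log2(signal + 16) scale, against -0.01 over all probe sets tested. This scale understates the change of dim genes. The 3 members not tested, Oas2, Cxcl9 and Cxcl11, were not above 50 on any array. In naive cultures 21 of 28 members tested rose and none fell, where 13.3% of all probe sets rose and 26% fell, with a median of 1.63 against -0.09. Of the 28, 22 were above 50 on all 3 undifferentiated naive arrays, and 15 of these rose, against 11% of all probe sets that met this condition. The count in naive cultures was 12 without naive differentiated array 1 and 12 without array 2, and 21 of 24 tested without array 3 (16.6% of all probe sets rose).

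Among transcription factors, Irf7, which amplifies the interferon response, had signals of 654, 1089 and 1084 in differentiated EAE cultures, against 29.9, 28.9 and 28.7 in undifferentiated EAE cultures. The groups did not overlap, and the difference was 4.37 ± 0.18 (adjusted p = 2.61e-07). In naive cultures Irf7 had 454, 367 and 44.8 after differentiation, against 30.6, 36.1 and 25.1 before it. Naive arrays 1 and 2 were high there and array 3 was near the undifferentiated level, and Irf7, above 50 on only 2 arrays, was not tested. Stat2 and Irf9, components of ISGF3, rose by 2.83 ± 0.13 and 3.10 ± 0.13 in EAE cultures and by 1.82 ± 0.30 and 1.93 ± 0.26 in naive ones. Irf1, the factor most tied to type II interferon, rose by 2.07 ± 0.18 in EAE and 0.57 ± 0.12 in naive cultures.

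The ISG15 system attaches the small ubiquitin-like protein ISG15 to other proteins. Isg15 itself had 2207, 4440.4 and 3299 in differentiated EAE cultures, against 52.8, 49.7 and 59.9 in undifferentiated ones, a difference of 5.52 ± 0.22 (adjusted p = 2.03e-07). In naive cultures it had 1246, 1377 and 123 after differentiation, against 49.6, 50.8 and 45.2 before. Neither pair of groups overlapped, and the lowest of the differentiated arrays was naive array 3. Usp18, which removes ISG15 and dampens receptor signalling, had 752, 1468 and 1212 in differentiated EAE cultures, against 4.56, 6.47 and 11.9 in undifferentiated ones. In differentiated naive cultures Usp18 had 467, 396 and 20.5, against 6.15, 2.77 and 4.04 in undifferentiated ones. Its undifferentiated signals were below the median background, so the fitted difference of 5.58 ± 0.22 in EAE cultures depends on the added 16. Herc6, an ISG15 ligase in mice, rose by 3.43 ± 0.22 in EAE and 1.94 ± 0.32 in naive cultures.

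Antiviral effectors differed widely between differentiated and undifferentiated EAE cultures. Mx1, a GTPase that blocks viral ribonucleoproteins, had 1206, 2849 and 2677 in differentiated EAE cultures, against 29.2, 17.99 and 53.7 in undifferentiated ones (5.48 ± 0.35, adjusted p = 3.12e-06). In naive cultures Mx1 had 670.2, 589 and 34.9 after differentiation, against 27.6, 31.4 and 16.4 before, with naive array 3 close to the undifferentiated arrays. Mx2 was bright in every SVZ group, with 7370.1, 9281 and 9343 in differentiated EAE cultures, against 1399.5, 1258 and 1579.6 in undifferentiated ones. Ifit1, which binds viral RNA caps, had 861, 2389.8 and 1364, against 15.03, 17.96 and 27.1 in the same pair of groups, and Rsad2, the enzyme viperin, had 745, 2396 and 1437, against 9.71, 17.6 and 19.1. For the oligoadenylate synthetase family, which activates RNase L, the difference in EAE cultures was 5.48 ± 0.20 for Oasl2, 5.31 ± 0.21 for Oas1b, 5.13 ± 0.20 for Oas1a and 2.85 ± 0.58 for Oasl. Oas2 stayed below 50 on the 6 differentiated SVZ arrays. At the low end, Isg20, an exonuclease, rose by 0.42 ± 0.13 in EAE cultures and had a difference of -0.02 ± 0.10 in naive ones, where it did not pass the test.

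**Figure D2:**
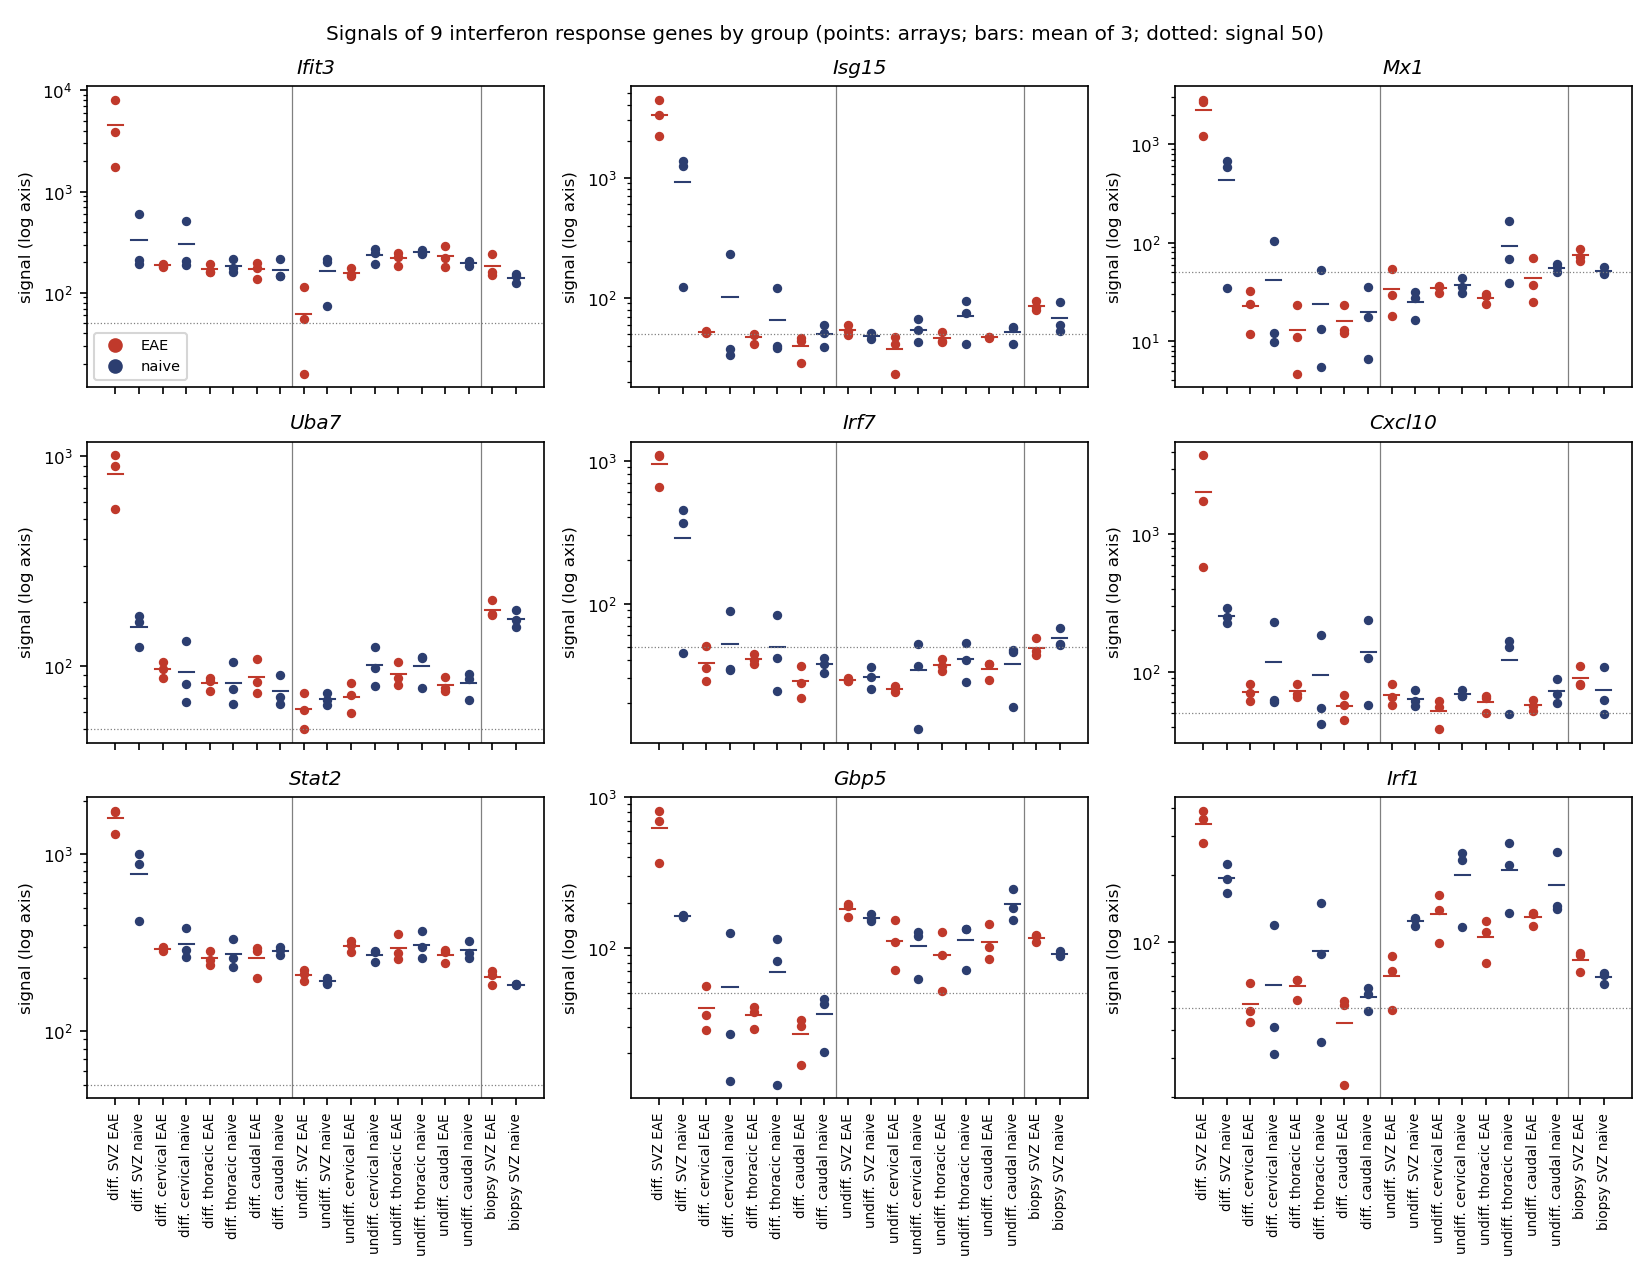
Signal (log axis) of 9 members in 18 groups of 3 arrays. Points are arrays, short bars are means, EAE is red and naive is blue, and the dotted line is a signal of 50. The differentiated SVZ EAE arrays are the highest in each panel, and Uba7, Cxcl10, Gbp5 and Ifit3 separate EAE from naive more widely than Stat2 and Irf1.

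The change on differentiation was more positive in SVZ than in cord cultures. The mean log2(signal + 16) over members was 6.45, 6.47 and 6.54 in undifferentiated cervical, thoracic and caudal EAE cultures. After differentiation it was 6.29, 6.18 and 6.13. In naive cord cultures it was 6.55, 6.84 and 6.74 before and 6.43, 6.41 and 6.29 after. These cord levels did not rise, and their change was not tested. As a contrast of SVZ minus the mean of the 3 cord regions, also chosen after the members' values were seen, all 35 members tested were higher in EAE cultures, where 28.3% of all probe sets were. Of the 35, 8 passed the signal filter only with the differentiated SVZ arrays, and the other 27 were all higher, against 27% of all probe sets that passed without those arrays. The median difference was 3.36 over members and 0.13 over all probe sets. Mx1 differed by 6.11 ± 0.36 (adjusted p = 2.79e-12), Ifit3 by 6.0 ± 0.46, Usp18 by 5.56 ± 0.34 and Isg15 by 5.45 ± 0.22. Values of members with signals near background in undifferentiated cultures, Mx1 and Usp18 among them, depend on the added 16, so their order was not measured. In naive cultures 21 of 35 were higher, where 6.01% of all probe sets were, with medians of 2.08 and 0.12. Of the 32 members that passed without the differentiated SVZ arrays, 18 were higher, against 5.51% of all such probe sets. Mx1 differed by 3.69 ± 0.88 (adjusted p = 0.0123), Gbp2, an interferon-induced GTPase, by 3.59 ± 0.92 (adjusted p = 0.02) and Oasl2 by 3.57 ± 0.88 (adjusted p = 0.0153). The naive count was 1 without replicate 1 of all groups, 0 without replicate 2, and 24 without differentiated SVZ naive array 3 alone (5.34% of all probe sets). In the mean over all 4 regions, which holds the SVZ change, 25 members were higher after differentiation in EAE cultures (18.1% of all probe sets rose). In naive cultures 4 were (6.64%). In that mean 3 members fell in EAE cultures, where 34.1% of all probe sets fell: Cmpk2 (-0.62 ± 0.10), Mx2 (-0.82 ± 0.17) and Gbp5 (-0.52 ± 0.14). In naive cultures 3 fell, where 26.8% of all did: Gbp5 (-0.96 ± 0.25), Irf1 (-0.89 ± 0.20) and Isg20 (-0.36 ± 0.09). The 7 calls in naive cultures became 3, 2 and 13 without replicates 1, 2 and 3, the last as 11 higher and 2 lower, where 8.14% of all probe sets were higher and 26.4% lower.

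**Figure D3:**
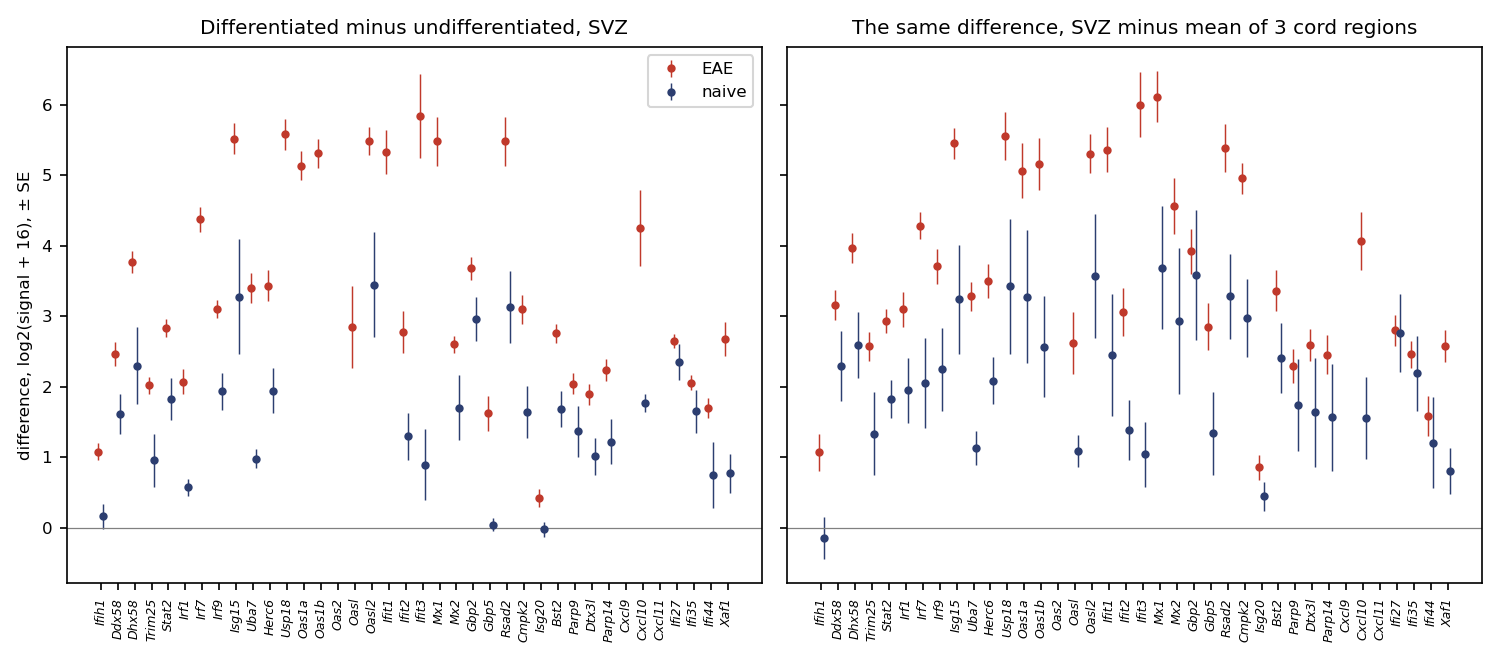
Change on differentiation in SVZ cultures (left) and the same change minus its mean over 3 cord regions (right), in log2(signal + 16), for EAE (red) and naive (blue), with SE from limma. A gene without a point was not above 50 on 3 arrays of that fit; every plotted EAE value is above 0, and the naive value is the lower one for each gene with both points.

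Within differentiated SVZ cultures, EAE and naive groups were compared next, the contrast the study was built on. All 35 members tested had a higher mean in EAE cultures, with a median difference of 1.53 over members and 0.14 over all 17539 probe sets tested. For 34 of the 35, each EAE array lay above each naive array, as did 27.4% of all probe sets. Of the 35, 7 were not above 50 on all naive arrays and were tested only through the EAE ones. The signal filter thus favoured a higher EAE signal for these 7. The median and the share without overlap were not recomputed for the other 28, or for all probe sets that met the same condition. No member passed the test, and no probe set on the array did (0% called). At an unadjusted p under 0.05 limma gave 30 members and 18.5% of all probe sets, and the methods' t-test gave 0 members after adjustment. In the authors' deposited table, all 38 members had a ratio above 1 and 27 had an unadjusted p under 0.05, against 13.4% of main probe sets.

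Without naive array 3, limma called 28 of the 35 members higher and none lower in EAE cultures, against 6.7% higher and 0.122% lower among all probe sets. That fit set 3 EAE arrays against naive arrays 1 and 2. It was examined with the members' low values on naive array 3 known, so its calls are not separate support for an EAE difference. The median difference was then 1.05 over members and 0.16 over all probe sets. Fitted with all 18 groups together, which share 1 estimate of the spread, 21 members were called higher, as were 1.59% of all probe sets. Naive array 3 was below all 5 other differentiated SVZ arrays for 35 of 38 members, and the median gap between arrays 1 and 2 and array 3 was 1.15 in log2(signal + 16).

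Uba7, the enzyme that activates ISG15, separated the groups without overlap. It had 559, 1008 and 895 in EAE cultures, against 173, 161 and 123 in naive ones, all EAE arrays above all naive arrays. The difference was 2.28 ± 0.24, with an adjusted p of 0.188, and 2.15 ± 0.21 (adjusted p = 0.00538) without naive array 3. Ifit3, an RNA-binding antiviral protein, had 1732, 8086 and 3905 in EAE cultures, against 212, 596 and 193 in naive ones. Replicate 2 was the highest array of each group. Its difference was 3.63 ± 0.64 (adjusted p = 0.188), and 3.35 ± 0.57 (adjusted p = 0.0167) without naive array 3.

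The chemokine Cxcl10, which draws T cells through CXCR3, had 579.6, 3760.1 and 1761 in EAE cultures, against 293, 249 and 225 in naive ones. Here the 3 naive arrays were close together, array 3 included, while the EAE arrays spread widely. Gbp5, a GTPase that promotes inflammasome assembly, had 366, 815 and 693, against 165, 162 and 164, again with like naive arrays. The differences were 2.55 ± 0.62 (adjusted p = 0.192) for Cxcl10 and 1.76 ± 0.28 (adjusted p = 0.188) for Gbp5, and both passed without naive array 3, at 2.47 ± 0.58 (adjusted p = 0.04) and 1.76 ± 0.27 (adjusted p = 0.0128). Cxcl9 and Cxcl11, the other ligands of CXCR3, stayed below 50 on all arrays.

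For other members the difference shrank more when naive array 3 was left out. Isg15 differed by 2.36 ± 0.89 with that array and by 1.27 ± 0.24 (adjusted p = 0.0212) without it. Mx1 differed by 2.93 ± 1.01 with it and by 1.71 ± 0.31 (adjusted p = 0.0196) without it. Xaf1, a pro-apoptotic factor, had 326, 615 and 686 in EAE cultures, against 168, 154 and 68.9 in naive ones, a difference of 1.95 ± 0.38, or 1.59 ± 0.26 (adjusted p = 0.0141) without that array. Members that did not pass even then were Ifi35, Ifi27, Isg20, Mx2, Parp9, Ifi44 and Oasl. By role, all 4 RNA sensors (Ifih1, Ddx58, Dhx58 and Trim25, which detect or relay viral RNA), all 4 transcription factors, all 4 genes of the ISG15 system and all 3 Ifit genes passed without array 3. Of 3 genes of the Parp9, Dtx3l and Parp14 group, 2 passed. All these passes come from the fit examined with the members' low values on naive array 3 known.

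The EAE difference was not the same in cord and SVZ. In differentiated cord cultures no member was called in cervical, thoracic or caudal cultures, where 0.133%, 0% and 0.89% of all probe sets were. At an unadjusted p under 0.05 limma gave 0, 0 and 1 members, and 3.97%, 6.11% and 9.35% of all probe sets, and the methods' t-test called none after adjustment. Median differences were -0.09, -0.36 and -0.13 over members, against -0.04, 0.0016 and -0.13 over all probe sets. The count in thoracic cultures was 1 lower without naive array 2 (1.1% of all probe sets), and in caudal ones 1 lower without EAE array 3 (4.15%) and 2 lower without naive array 3 (3.67%). As a test of the difference itself, cord minus SVZ, 7 of 35 members were lower and none higher, where 0.861% of all probe sets were lower and 0.0154% higher. In the mean of the 3 cord regions alone no member was called (2.49% of all probe sets), and limma gave none at an unadjusted p under 0.05 (21.5% of all probe sets). Ifit3 had an EAE difference of -0.19 ± 0.16 in cord and 3.63 ± 0.64 in SVZ, and cord minus SVZ was -3.83 ± 0.51 (adjusted p = 0.00201). Cxcl10 had -0.48 ± 0.29 in cord and 2.55 ± 0.62 in SVZ (-3.03 ± 0.65, adjusted p = 0.0364), and Uba7 0.09 ± 0.12 and 2.28 ± 0.24 (-2.19 ± 0.26, adjusted p = 0.000505). The other 4 were Oasl (-2.10 ± 0.49), Ifit2 (-2.05 ± 0.46), Xaf1 (-2.01 ± 0.34) and Stat2 (-1.21 ± 0.28). Of the 35 members, Oasl, Oas1a, Mx1, Rsad2, Usp18, Cmpk2 and Herc6 passed the signal filter only with the SVZ arrays. The filter thus favoured a difference between SVZ and cord for them, and among the 7 calls this holds for Oasl. The shares were not recomputed without these members. Of the 7 calls, 4 were left without replicate 1 of all groups, 1 without replicate 2, 1 without replicate 3, and 3 without SVZ naive array 3 alone (0.113% of all probe sets lower).

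**Figure D4:**
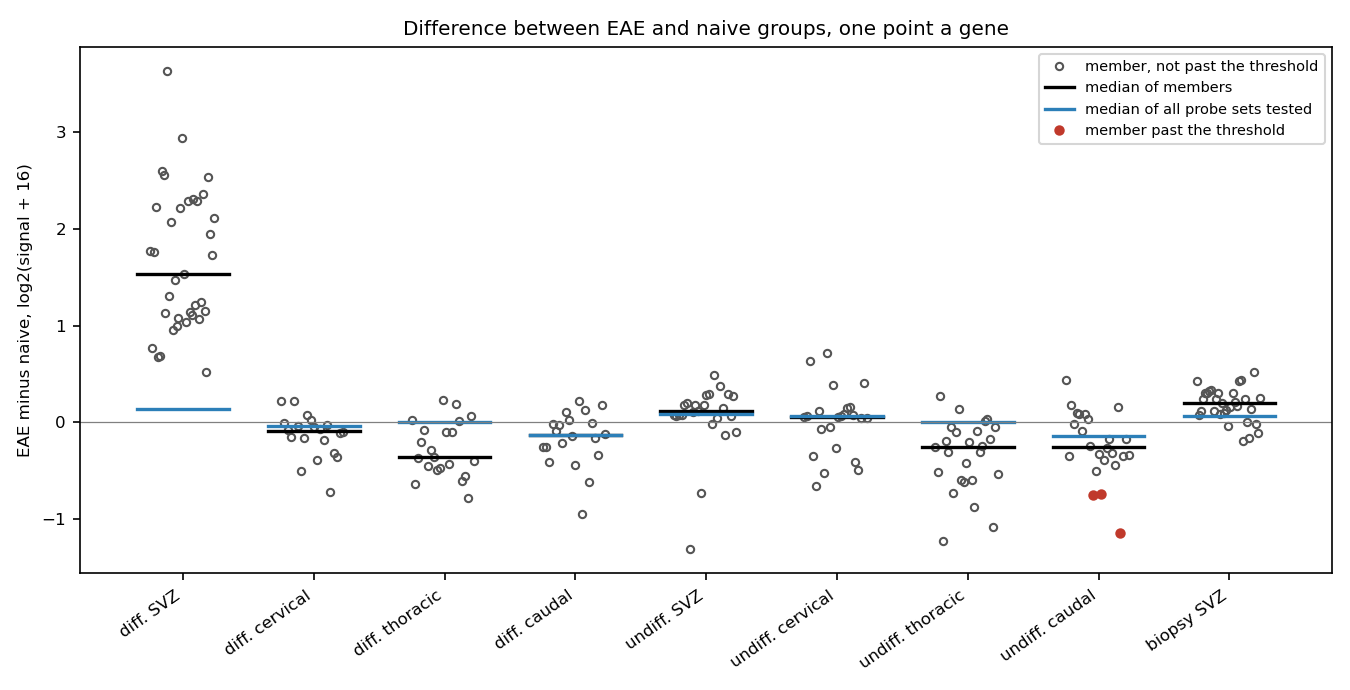
EAE minus naive difference in log2(signal + 16) in 9 pairs of groups. Each circle is a member tested, filled where it passed the test, black bars are medians over members and blue bars medians over all probe sets tested. All points of differentiated SVZ are above 0, with a median of 1.53, and filled points occur only in undifferentiated caudal cultures.

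Across all 4 regions the EAE difference in differentiated cultures passed for Uba7 alone (0.64 ± 0.11, adjusted p = 0.00462), where 0.605% of all probe sets were higher. Against undifferentiated cultures it was larger for 2 members, where 2.68% of all probe sets were: Uba7 (0.81 ± 0.14, adjusted p = 0.00214) and Ifit3 (1.22 ± 0.30, adjusted p = 0.0247). The Uba7 call over 4 regions was lost without replicate 2 and without replicate 3, and the count of 2 became 1 and 0. These averages hold the SVZ difference given above.

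Genes upstream of the members were then examined. Probe sets of the ligands Ifnb1, Ifng and Ifnk did not pass 48.7 on any array; Ifnb1 had 24.6, 21.9 and 23.6 in differentiated SVZ EAE cultures, against 22.6, 16.9 and 24.4 in naive ones. Other type I interferon genes were not analysed here. Of 5 receptor genes tested, none passed between EAE and naive differentiated SVZ cultures, and Ifnar1, a chain of the type I receptor, had 677, 669 and 739, against 661, 585 and 759.8. On differentiation in EAE cultures 2 of the 5 rose (26.3% of all probe sets did), Il10rb, a receptor chain for type III interferon and interleukin 10, by 1.26 ± 0.10 and Ifngr2 by 0.60 ± 0.10. Socs3, a feedback inhibitor of cytokine signalling, fell by 2.52 ± 0.18 in EAE and by 1.54 ± 0.16 in naive cultures. Of 6 sensing genes tested there, 2 rose, the adaptor Myd88 (0.82 ± 0.08) and the kinase Ikbke (0.83 ± 0.09), and 2 fell, the double-stranded RNA receptor Tlr3 (-0.90 ± 0.12) and the adaptor Traf3 (-0.37 ± 0.08). Of all probe sets tested 26.3% rose and 28.5% fell there, so 2 of 6 in each direction is near the background.

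Of 18 further interferon-induced genes tested, all 18 rose on differentiation in EAE SVZ cultures and 11 of 16 tested did in naive ones, where 26.3% and 13.3% of all probe sets rose. Of the 25 genes of this list, 12 to 13 were above 50 on undifferentiated EAE arrays and 18 to 19 on differentiated ones. In naive cultures 12 to 14 and 16 to 18 were. Some thus passed the signal filter only with differentiated arrays, which favoured a rise, and the counts were not recomputed without them. The transmembrane antiviral gene Ifitm3 had 4045, 4659.6 and 4107 in differentiated EAE and 4498, 3378 and 5693 in differentiated naive cultures, against 150.2, 188 and 166 and 153, 136 and 144 before differentiation. Unlike the members it was highest on naive array 3. Rtp4 had 1003, 1745 and 1719 in differentiated EAE cultures, against 556, 617 and 65.7 in naive ones, with naive array 3 low.

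Markers of other cell types differed between the same arrays, and their part in these results was not tested. The summed signal of 7 astrocyte markers was 33005, 37137 and 35734 in differentiated SVZ EAE cultures, against 29999, 27574 and 24191 in naive ones. The groups did not overlap, and naive array 3 was the lowest, as for the members. In undifferentiated SVZ the astrocyte sum was 14528, 13689 and 13962 in EAE and 11574, 11974 and 11489 in naive cultures, below all differentiated SVZ arrays, and in differentiated cord cultures it was 1393 to 8677. The sum of 8 neuron markers was 1837, 1939.6 and 1695 in differentiated SVZ EAE cultures, against 1177, 1361 and 1415 in naive ones, also without overlap. It was 841, 901 and 1015 in undifferentiated EAE and 849, 1053 and 855 in undifferentiated naive SVZ cultures. The summed signal of 20 microglia and macrophage markers was 1256, 2949 and 1707 in differentiated SVZ EAE cultures, against 854, 816 and 4857 in naive ones. Naive array 3, where the members were lowest, had the highest sum, with 20 of 20 above 50, as on EAE array 2, where 26 members had their highest signal. The sum of 14 fibroblast and pericyte markers was 15839, 10549 and 12112 in EAE cultures, against 16725, 13107 and 2779 in naive ones. Of the 14, 7 to 8 were above 50 on the EAE arrays and 6 to 8 on the naive ones, while Lum, Dcn, Postn and Aspn were below every array's background median. The sum of 8 oligodendrocyte markers was 6629.9, 12959.5 and 8989.6 in EAE and 5077, 3924 and 28005 in naive cultures. Of 9 T and NK cell markers 3 were above 50 on each array, with sums of 426, 428 and 487 in EAE and 409, 421 and 506 in naive cultures. Cd3d, Cd3g, Cd4, Cd8a, Cd2 and Lck were below 50 on all 6. In undifferentiated cord EAE cultures the microglia sum reached 3580 to 12264, and in differentiated ones 2671 to 8870. Sums in undifferentiated SVZ were 546, 553 and 516 in EAE and 458, 545 and 455 in naive cultures.

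**Figure D5:**
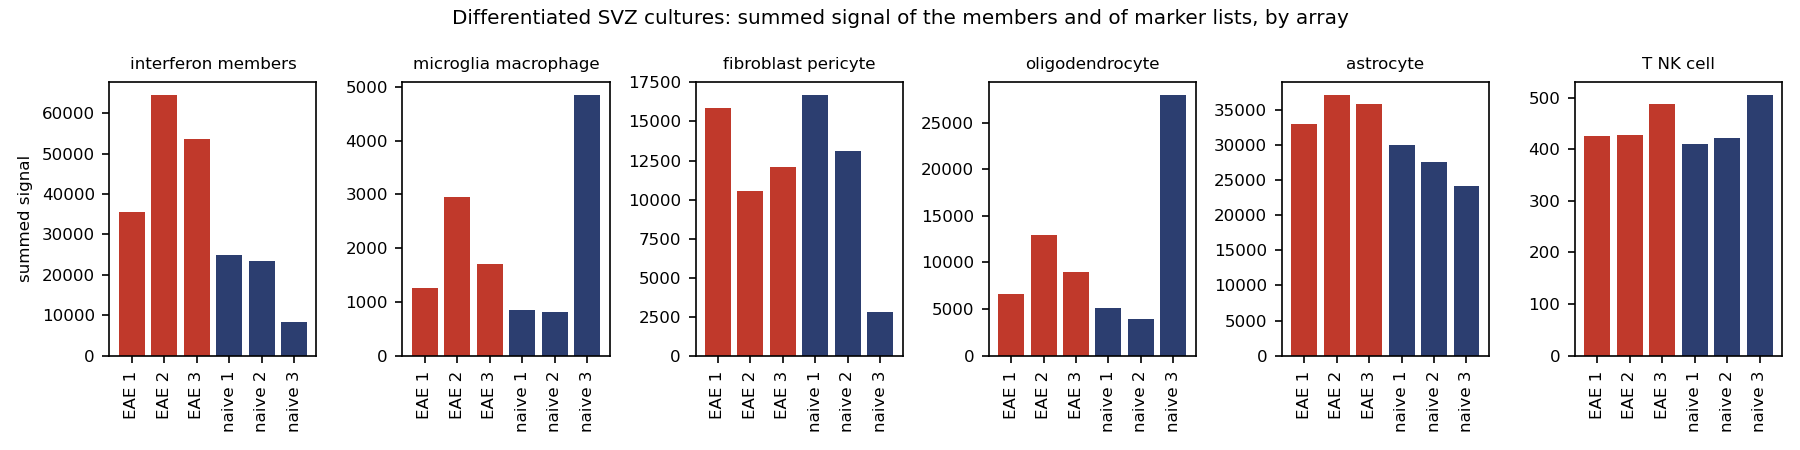
Summed signal of the 38 members and of 5 marker lists on the 6 differentiated SVZ arrays, EAE in red and naive in blue. Naive array 3 has the lowest sum of the members, of fibroblast and of astrocyte markers and the highest of microglia and oligodendrocyte markers; each panel has its own axis from 0.

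In undifferentiated cultures few members differed between EAE and naive rats. None was called in SVZ, cervical or thoracic cultures, and no probe set on the array was (0% each). At an unadjusted p under 0.05 limma gave 7, 1 and 3 members, and 12%, 10.8% and 6.31% of all probe sets, and the methods' t-test called none after adjustment. The thoracic count became 9 lower without naive array 2, where 6.19% of all probe sets were lower. In caudal cultures 3 of 24 members tested fell, where 13.9% of all probe sets did, so the count is near the background. Gbp2 had 137, 254 and 97.4 in EAE cultures, against 369, 258 and 464 in naive ones (-1.15 ± 0.29, adjusted p = 0.0231). Gbp5 had 101.2, 145 and 84.5, against 248, 154 and 184 (-0.75 ± 0.21, adjusted p = 0.0336), and Ifi44 63.5, 110.5 and 54.0, against 155, 100.03 and 152 (-0.74 ± 0.23, adjusted p = 0.049). The groups did not overlap for Gbp2 and Gbp5 and overlapped for Ifi44, whose EAE array 2 lay above naive array 2. The 3 calls were lost without EAE array 1, EAE array 3, naive array 1 or naive array 3, became 5 without EAE array 2 (18.4% of all probe sets lower), and were 0 by the methods' t-test and in a fit of all groups.

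In the same caudal cultures 12 of 14 fibroblast markers fell and 19 of 20 microglia markers rose, where 13.9% of all probe sets fell and 3.32% rose, and their part in the calls was not tested. All 20 microglia markers were above 50 on each EAE array, and 3 to 4 on the naive arrays. Fibroblast markers above 50 numbered 4 to 10 on EAE and 13 to 14 on naive arrays. For markers that passed the signal filter only with the higher group, the filter favoured these directions. The fibroblast sums were 777, 811 and 4183 in EAE cultures, against 5494, 10829 and 13134 in naive ones, and the microglia sums 8354, 6308 and 5976, against 563, 662 and 942. Of the fibroblast markers Tagln and Cspg4 did not pass, and of the microglia markers Tmem119 did not. In thoracic cultures Ifi44 had 59.9, 80.6 and 75.3 in EAE cultures, against 266, 85.5 and 285 in naive ones, and Gbp2 112.6, 157 and 92.7, against 446, 132 and 319. Naive arrays 1 and 3 were high for both genes and had fibroblast sums of 58663 and 75699, against 790.5 on naive array 2. The part of fibroblast cells in this was not tested.

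Over the mean of 4 regions Irf1 was the one member that fell in undifferentiated EAE cultures (-0.62 ± 0.14, adjusted p = 0.0135). Of all probe sets 4.04% fell, so the count is near the background. In SVZ Irf1 had 73.99, 86.4 and 49.2 in EAE cultures, against 126.98, 118 and 128.7 in naive ones, without overlap. Its thoracic signals were 80.5, 125 and 111.1 in EAE and 221, 135.2 and 279 in naive cultures, also without overlap, as in caudal cultures, while the cervical groups overlapped. The count of 1 became 0 without replicate 1, 10 lower without replicate 2 (6.62% of all probe sets) and 0 without replicate 3 of all groups. Over the 3 cord regions alone Ifi44 was the one member called (-0.88 ± 0.24, adjusted p = 0.0446), where 5.06% of all probe sets fell, again near the background. The count was 0 without replicate 1, 15 lower without replicate 2 (7.31% of all probe sets) and 0 without replicate 3. No member passed between cord and SVZ in this EAE difference (limma, 0.233% of all probe sets called), with 3 members and 9.02% of all probe sets at an unadjusted p under 0.05 (the methods' t-test was run on pairs of groups only). The count of 0 became 1 lower without replicate 2 (0.211% of all probe sets).

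Regions differed in naive undifferentiated cultures. In cord minus SVZ, 5 members were higher and 2 lower, where 12.2% of all probe sets were higher and 10.6% lower. Ifit2, an apoptosis-linked member of the Ifit family, had 343, 203 and 179 in cervical, 276, 306 and 210.3 in thoracic and 354, 204 and 266 in caudal cultures, against 48.4, 34.96 and 34.4 in SVZ cultures. All 9 cord arrays lay above the SVZ ones, and the difference was 2.30 ± 0.21 (adjusted p = 5.77e-05). Ifi27, an interferon alpha-inducible gene, was higher by 1.54 ± 0.35, Gbp2 by 1.39 ± 0.36, Stat2 by 0.54 ± 0.12 and Dhx58 by 0.53 ± 0.16. The viral RNA sensor Ifih1 was lower (-0.62 ± 0.13), as was Herc6 (-0.55 ± 0.13). The 7 calls became 1 without replicate 1 and 2 without replicate 3. Of 8 oligodendrocyte markers all 8 were higher in cord, and their part was not tested.

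In uncultured SVZ tissue the members lay near their undifferentiated culture level, at 6.79 ± 0.08 in EAE and 6.64 ± 0.12 in naive biopsies (mean log2(signal + 16) over members, SD, n = 3 each). Isg15 had 83.9, 79.95 and 95 in EAE biopsies, against 53.1, 92.4 and 59.2 in naive ones, overlapping, and Mx1 had 86.4, 71.97 and 65.2, against 49.0, 56.6 and 48.5, not overlapping. None of 31 members tested was called, and 0.0151% of all probe sets were. The sign was positive in 26 of 31, with a median of 0.20 against 0.06 over all probe sets, and for 9 members each EAE array was above each naive one, as for 6.78% of all. At an unadjusted p under 0.05 limma gave 9 members and 3.75% of all probe sets, and the methods' t-test called none after adjustment. The smallest p was that of Bst2, which tethers virions to the cell surface, with 252, 229 and 311 in EAE biopsies, against 164, 189 and 182 in naive ones (0.52 ± 0.13, adjusted p = 0.731). Gbp2 differed by 0.44 ± 0.12 and Mx1 by 0.42 ± 0.12. The count of 0 became 1 higher without EAE array 2 (0.378% of all probe sets) and 3 higher without naive array 2 (0.685%). The difference between biopsy and undifferentiated culture in this EAE difference was not past the threshold for any member (limma, 0.0196% of all probe sets called, 2 members and 4.2% of all probe sets at an unadjusted p under 0.05). Naive biopsies minus naive undifferentiated SVZ cultures, which share their control arrays with comparisons above, gave 12 members higher and 11 lower of 30. Of all probe sets 33.2% were higher and 43.7% lower. Herc6 (1.39 ± 0.11), Oasl2 (1.59 ± 0.14) and Cmpk2 (1.16 ± 0.10) were higher in tissue, and Ifih1 (-1.65 ± 0.12), Ifi44 (-1.48 ± 0.13) and Dtx3l (-1.17 ± 0.11) lower. The 23 calls became 15 without biopsy array 2.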

How the data were processed

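The authors deposited intensity values on a linear scale for each probe set, 1 Affymetrix gene-level array per sample. Per the file headers the summary method was PLIER, the background was corrected by GC content and arrays were scaled to a global median, while the submitters' processing notes name Affymetrix Expression Console with no version. For each EAE comparison the authors' deposited table adds a ratio of group means and its p-value, unadjusted. Array type and genome build: not given in the sources used here. Both deposited tables held the same values.

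Signals were analysed here as log2(signal + 16). A probe set was tested where its signal was above 50, the limit of the study's design text, on at least 3 arrays of the fit. Each comparison was fitted over all main probe sets by the two-sided moderated test of limma 3.58.1 (R 4.3.3), and p-values were adjusted by Benjamini-Hochberg over all probe sets tested. A call needs at least a 1.2-fold difference at an adjusted p not above 0.05, and every adjusted p and ± SE of a difference is from that fit. Where a difference spans regions, leaving out a replicate removed that number from every group. Simulated arrays with known changes were used to test it. The number of arrays limits the precision.

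The members, the gene lists and the added comparisons were chosen with earlier results of these data known. Genes were named by rule, up to 8 called members with the largest change per comparison, or the 3 with the smallest p where fewer were called, and others were named after their values were seen. Where a gene had several probe sets, the brightest by mean log2 signal was used, and each member had 1. Alternatives were log2(signal + 1), no signal filter, the methods' t-test, quantile or 75th percentile scaling, leaving out arrays, a replicate block and all groups in 1 fit. Replicate numbers did not pair the groups of a comparison: correlations of deviations lay between -0.44 and 0.44. In no comparison was every replicate's over 0.1, so no block was used. Regions were not compared with each other in this way. In each cord region naive undifferentiated replicate 2 had the lowest member level (6.26, 6.41 and 6.53). Naive differentiated replicate 1 had the highest (7.43, 7.01 and 6.61), while in differentiated EAE cultures no replicate was highest in every cord region. If arrays of the same number share a source, SE and p-values of means over regions may be too small. Promoter windows are from RefSeq, build GRCr8. Results of 1 signalling gene are not reported here.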

Additional observations from a re-analysis of the deposited data

Results flagged for a closer look

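The following results stand out because an effect differed between regions or stages by a test of the difference itself. The EAE difference in differentiated cultures, as cord minus SVZ, passed the test for 7 members, among them Ifit3 (-3.83), Cxcl10 (-3.03) and Uba7 (-2.19) on the log2(signal + 16) scale. All 7 were lower, as were 168 of all 19520 probe sets tested, and Oasl among them was tested only through the SVZ arrays. The EAE difference in differentiated minus undifferentiated cultures passed for 2 members, Ifit3 (1.22) and Uba7 (0.81), where 542 of all 20237 probe sets were higher. The change on differentiation, as SVZ minus cord, passed for 35 members in EAE cultures, with values of 6.11 for Mx1, 6.0 for Ifit3 and 5.56 for Usp18. Of all 19594 probe sets 5540 were higher there, and 8 of the 35 members passed the signal filter only with the differentiated SVZ arrays. In naive cultures it passed for 21 members, with 3.69 for Mx1, 3.59 for Gbp2 and 3.57 for Oasl2, where 1176 of all 19576 probe sets were higher. Nearly all of these naive calls were lost when some replicates were left out, as given in the report. Values of members near background in undifferentiated cultures, such as Mx1 and Usp18, depend on the added 16, so no order among them is given. No group held the 4 or more arrays needed to test for a single array that stands apart. Differentiated SVZ naive array 3 is described in the report by its values, and some fits were also run without it.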

How the results depend on the processing

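Each count of called members was recomputed under each alternative. EAE against naive in differentiated SVZ gave 0 members, but 21 with all groups in 1 fit, 28 without the arrays of low mean correlation or of low highest correlation, and 0 to 28 leaving out 1 array. Cord minus SVZ of that difference gave 7, and 3 with log2(signal + 1), 4 with no filter, 3 with quantile and 2 with 75th percentile scaling, 22 in 1 fit and 1 to 4 leaving out a replicate. Differentiated minus undifferentiated gave 2, and 5 with no filter, 4 with 75th percentile scaling, 4 in 1 fit and 0 to 3 leaving out a replicate. Undifferentiated caudal gave 3, and 0 in 1 fit, 1 with the replicate block, 0 by the methods' t-test and 0 to 5 leaving out an array. Differentiation in naive cultures gave 7, and 11 with quantile normalization, 13 in 1 fit, 12 with the replicate block and 2 to 13 leaving out a replicate. Differentiation in naive SVZ gave 21, and 12 by the methods' t-test and 12 to 21 leaving out an array. SVZ minus cord in naive cultures gave 21 and 0 to 21 leaving out a replicate. The undifferentiated mean over 4 regions gave 1, and 2 with log2(signal + 1), 2 with no filter, 5 without arrays of low highest correlation and 0 to 10 leaving out a replicate. Over 3 cord regions it gave 1, Ifi44, and 2 with no filter, 0 with quantile and 0 with 75th percentile scaling, 2 in 1 fit, 9 without arrays of low highest correlation and 0 to 15. Undifferentiated thoracic gave 0, and 9 without arrays of low highest correlation and 0 to 9 leaving out an array. Undifferentiated cord minus SVZ gave 0, and 2 without those arrays and 0 to 1. The differentiated mean over 4 regions gave 1, and 3 in 1 fit and 0 to 1. Differentiated thoracic and caudal and the biopsies gave 0, and 0 to 1, 0 to 2 and 0 to 3. Cord minus SVZ in naive undifferentiated cultures gave 7, and 14 without arrays of low highest correlation and 1 to 7. Biopsy minus culture gave 23, and 14 in 1 fit and 15 to 22.

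Among recomputed values of named genes, 1071 kept direction and side of the threshold, 120 lost the threshold, 40 passed it and 3 changed sign. The EAE difference of Cxcl10 was 0.17 in differentiated cervical cultures without naive array 1, which also was the array of low mean correlation there (range leaving out an array -0.68 to 0.17), and 0.053 over 3 cord regions without replicate 1 (range -0.88 to 0.053). The cause was not tested except where an alternative leaves out arrays or genes by construction. The low correlation limit of 0.96 was planned for mean correlation, where it emptied whole groups of 13 comparisons, which were not run; the version by highest correlation was added after seeing the data and emptied groups of 7. Averaging all probe sets of a member was not run, since each has 1. The replicate block changed no other count by over 1.5 times; replicate numbers give no pairing in the labels. Genes at or near background carry understated differences.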
